A study of Mus musculus with 58 samples.

Results

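Nascent RNA was compared between RBBP5–FKBP mouse embryonic stem (mES) cells before and after 8 h of RBBP5 degradation. The 6 SLAM-seq samples were taken by their labels, 3 at 0 h and 3 at 8 h, out of 58 samples in the series. All 6 came from E14 mES cells of the 129/Ola background, grown in serum with LIF on gelatin, in which both copies of Rbbp5 carry an FKBP degradation tag with HA epitopes at the 3′ end of the gene. The paper reports clonal lines grown from single sorted cells, and the labels name no clone. How many clones these libraries cover is therefore not known, and each group describes this line only. The 0 h cells carried the same tag without the ligand, the 8 h cells had received dTAG-13, which directs FKBP-tagged protein to the ubiquitin ligase cereblon, and all were given 100 µM 4-thiouridine (4SU) for 60 min before RNA isolation. A cell line that lacks the tag but received dTAG-13 was not analysed here, so an effect of the ligand itself and of the loss of RBBP5 cannot be told apart in these samples.

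RBBP5 is a core subunit of the SET1/COMPASS and MLL complexes, where it forms a module with WDR5, ASH2L and DPY30 that the catalytic SET-domain proteins need for full activity. These enzymes place methyl groups on lysine 4 of histone H3, and the trimethylated form, H3K4me3, marks the start of active genes and of poised developmental genes in mES cells. In SLAM-seq, 4SU enters RNA during its synthesis and, once alkylated, is read as C in place of T, so reads with a T>C mismatch stand for RNA made in the labelling hour and reads without one mostly for older RNA.

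The tag was placed with a guide RNA that cuts near the 3′ end of the Rbbp5 coding sequence. It is shown because it fixes where the degradable protein is modified. The spacer is printed 5′ to 3′ in lower case, followed in capitals by the 3 bases that come after it in the right homology arm of the donor, which form an NGG motif.
Rbbp5 guide: cagaactgctgtgaagaccgTGG

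The transcript of the tagged gene is no check of the degron, which acts on the protein. Rbbp5 (chr1:132477365-132505659 in GRCm38, plus strand) had 16.4, 11.4 and 21.9 T>C CPM (the T>C reads of a gene as counts per megaread of all counted reads) in the 0 h libraries and 8.44, 2.8 and 11.8 in the 8 h libraries. The groups overlapped, and Rbbp5 did not pass the test (log2 fold change −1.09, standard error (SE) 0.52, adjusted p = 0.21, quasi-likelihood test of edgeR, Benjamini-Hochberg adjusted over all tested genes).

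The authors deposited, for each 3′ UTR interval, the number of all reads and of T>C reads, and these counts were summed per gene. The 0 h libraries held 2165418, 2852331 and 2753787 counted reads and the 8 h libraries 1736015, 1809492 and 2128405, of which 219425 to 269449 and 117134 to 150854 were T>C reads. The 8 ES cell identity genes were present in all 6 libraries, and their summed total level was 6659 to 6815 CPM at 0 h and 6579 to 6966 CPM at 8 h. In these bulk samples, fewer cells of a type and less RNA per cell cannot be told apart.

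Of the counted reads, 10.1%, 9.45% and 9.1% carried T>C in the untreated libraries, and 7.25%, 6.47% and 7.09% after 8 h of dTAG-13. Per 100 covered T positions, the untreated libraries held 0.642, 0.583 and 0.554 conversions and the treated libraries 0.426, 0.388 and 0.413. The 8 h libraries lay under the 0 h libraries in both measures, at 0.726 of the 0 h mean for the share of reads and 0.69 for the conversion rate. A two-sided exact permutation test gave p = 0.1 for each, the smallest value that 3 libraries against 3 allow. Unlabelled libraries were at hand only from another line and treatment, DPY30–mAID cells in a retinoic acid time course with DMSO or auxin. In 21 such Quant-seq libraries with distinct values (1 pair of 22 was identical and counted once), the share of T>C reads had a median of 0.344%, with a range of 0.303% to 0.388%, far under every labelled library. Their reads covered 11.2 to 11.9 T positions, fewer than those of the labelled libraries, so the share per read is not compared on equal terms, and their median per 100 covered T was 0.0286 conversions. Of the mapped reads, 38.5% to 44% fell into the counted intervals at 0 h and 35.2% to 38.5% at 8 h. A read covered 18.4 to 19 T positions at 0 h and 18 to 18.9 at 8 h. A T>C read held 1.16 to 1.17 conversions at 0 h and 1.08 to 1.10 at 8 h, without overlap. The part of weaker labelling in the lower share of T>C reads was not tested.

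**Figure D1:**
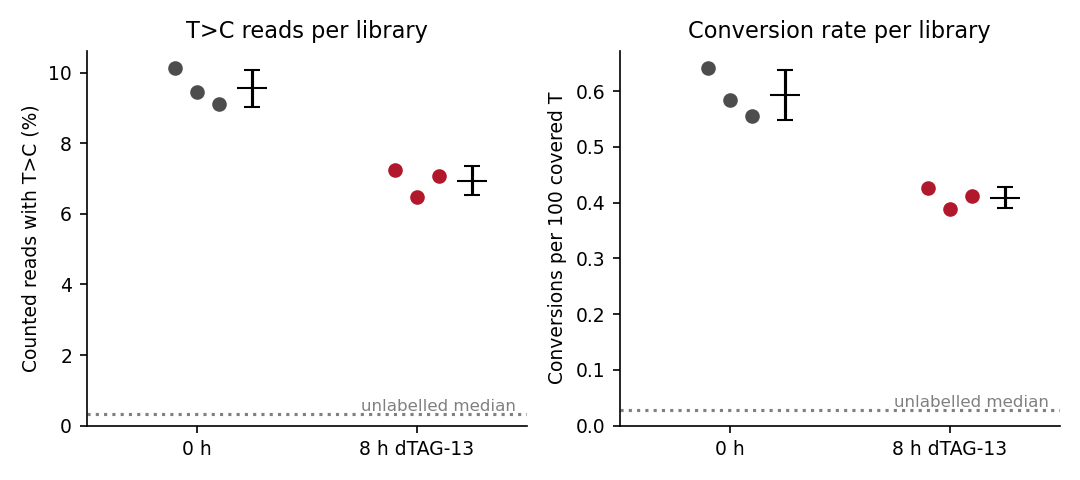
Labelling of the 6 RBBP5–FKBP libraries. Points are single libraries at 0 h and 8 h of dTAG-13, bars give the mean ± SD of 3 libraries, and the dotted line is the median of 21 unlabelled libraries from the retinoic acid time course in DPY30–mAID cells. The left axis is the percent of counted reads with T>C and the right axis the conversions per 100 covered T. The 8 h points lie under the 0 h points in both panels.

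Genes were tested with library sizes set by the total reads, so that a loss shared by most genes stays in the values. The 4761 genes tested averaged 10 or more T>C reads in some time point. Downregulated genes, those at least 2-fold lower at an adjusted p under 0.05, numbered 267 (5.61%), and genes upregulated by the mirrored rule 6 (0.126%). Negative values were not limited to the called genes: 3564 of the 4761 genes, or 74.9%, had a negative log2 fold change. The median over all tested genes was −0.50. The filter enters these values, since 1265 genes (26.6%) passed it at 0 h and not at 8 h, and 189 (3.97%) the reverse. The median was −0.18 without a filter and −0.71 with a filter of 50 T>C reads. Without 8 h replicate 2 the downregulated genes numbered 146, and of the 267 genes 72 were called whichever library was left out. When libraries were scaled to their T>C reads instead, which removes a loss shared by all genes, the median moved to −0.16 and 41 genes (0.861%) remained downregulated, all of them among the 267. Changes below are therefore also read against the median of −0.50.

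Among the tested genes, 1136 (23.9%) had every 8 h library under every 0 h library, and 247 of the 267 downregulated genes did. All 267 averaged 10 or more T>C reads at 0 h, and 205 of them also at 8 h. The reads of 29 downregulated genes mapped to more than 1 place in over 50% of cases, and their values are uncertain because the counting could split them between near-identical copies.

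**Figure D2:**
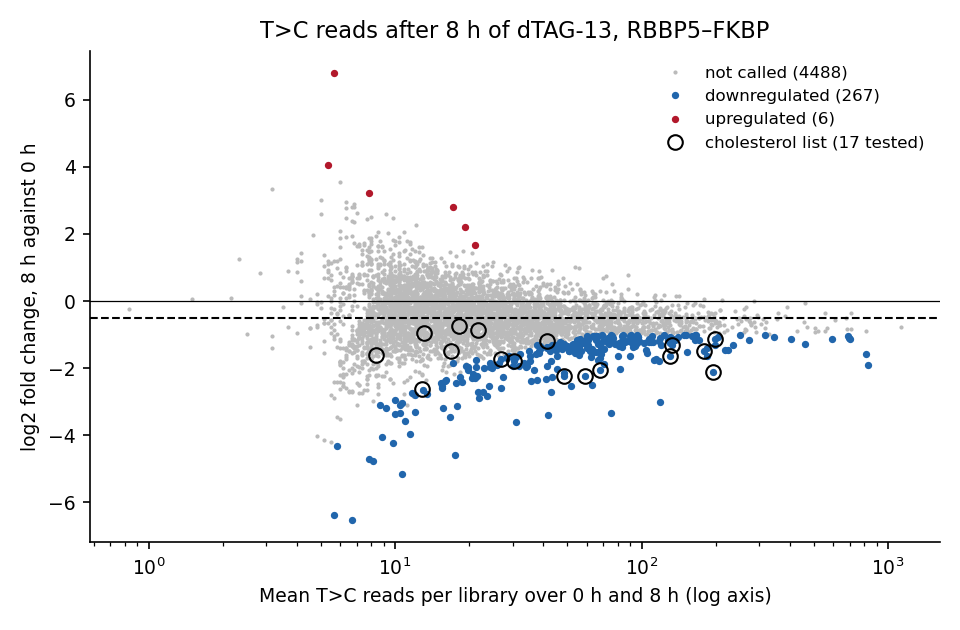
Change in T>C reads against abundance. Each point is a tested gene, the horizontal axis is the mean T>C reads per library over 0 h and 8 h on a log scale, the vertical axis the log2 fold change at 8 h, and the dashed line the median of −0.50. Downregulated genes (267) spread over the whole range of abundance, upregulated genes (6) have few reads, and the ringed genes of the cholesterol list (17) all lie below 0.

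The downregulated genes with the most T>C reads at 0 h came from several cell functions. Mat2a (chr6:72432799-72439558), which encodes the methionine adenosyltransferase that makes S-adenosylmethionine, the methyl donor of histone methylation, had 599, 520 and 514 T>C CPM at 0 h and 136, 164 and 139 at 8 h. All 8 h libraries lay far under the lowest 0 h library, with a log2 fold change of −1.90 (SE 0.16, adjusted p = 2.4e-14, edgeR). Jade1 (chr3:41555731-41616864), a PHD-finger subunit of the HBO1 acetyltransferase complex, had 441, 524 and 556 T>C CPM at 0 h and 173, 161 and 180 at 8 h, a log2 fold change of −1.56 (SE 0.16, adjusted p = 1.09e-11, edgeR). Its 8 h libraries lay close together and far from the 0 h libraries.

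Actb (chr5:142903115-142906754), cytoplasmic β-actin, had 425, 393 and 418 T>C CPM at 0 h and 196, 236 and 138 at 8 h, a log2 fold change of −1.12 (SE 0.17). Here the 8 h libraries varied more among themselves than the 0 h libraries did. G3bp2 (chr5:92052146-92083719), a stress granule RNA-binding protein, had 201, 319 and 292 T>C CPM at 0 h and 113, 88.5 and 131 at 8 h (log2 fold change −1.28, SE 0.19). Igf2bp1 (chr11:95957163-96005940), which binds and stabilizes mRNAs in embryonic cells, had 228, 234 and 242 against 122, 87.4 and 114 T>C CPM (log2 fold change −1.12, SE 0.19). Ncl (chr1:86344719-86359400), the nucleolar protein nucleolin, had 145, 177 and 214 against 104, 68.9 and 92.8 T>C CPM and was just past the fold threshold, with a log2 fold change of −1.02 (SE 0.20). In edgeR the adjusted p of these 4 genes was 2.56e-06, 2.48e-06, 2.31e-05 and 0.000468 in the order given. Of these 4, only G3bp2 was called whichever library was left out.

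The steepest falls, among genes that averaged 30 or more T>C reads at 0 h, are given next. These genes were ranked by the values shown, and several folds rest on few 8 h reads, such as 6, 5 and 5 for Pclaf. Plaur, the urokinase receptor, had 19.3, 12.4 and 9.64 T>C CPM at 0 h and 1.13, 0 and 0.453 at 8 h (log2 fold change −4.58, SE 0.91). Phlda1, a pleckstrin homology protein induced by growth factor signalling, had 25.8, 13.1 and 30.8 at 0 h and 0, 2.24 and 3.17 T>C CPM at 8 h (log2 fold change −3.60, SE 0.67). Both genes were nearly without T>C reads in at least 1 of the 8 h libraries. Nrp2, a receptor for semaphorins and VEGF, fell from 63.9, 42.6 and 61.2 to 8.44, 1.68 and 6.34 T>C CPM, a log2 fold change of −3.33 (SE 0.40, adjusted p = 5.19e-09, edgeR). Pclaf, the PCNA-binding replication factor, fell from 24.9, 39.8 and 25.6 to 3.38, 2.8 and 2.26 T>C CPM (log2 fold change −3.41, SE 0.56), and 27.8% of its reads were multimapped. In both genes all 8 h libraries were far below the 0 h libraries. Prag1, a pseudokinase scaffold, had 10.8, 12.4 and 13.4 T>C CPM at 0 h and 1.69, 1.68 and 0 at 8 h (log2 fold change −3.45, SE 0.79, adjusted p = 0.0026, edgeR).

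The 6 upregulated genes had few T>C reads. All but Dpm3 averaged under 10 T>C reads at 0 h, so they met the filter at 8 h and not at 0 h. Stard7, a lipid transfer protein that carries phosphatidylcholine to mitochondria, had 4.23, 0.355 and 1.85 T>C CPM at 0 h and 7.88, 12.9 and 23.1 at 8 h (log2 fold change 2.81, SE 0.67, adjusted p = 0.00409, edgeR). Mitf, the melanocyte and osteoclast transcription factor that also controls lysosomal genes, had 1.41, 3.91 and 4.45 at 0 h and 11.3, 21.3 and 14 T>C CPM at 8 h (log2 fold change 2.21, SE 0.65). Dpm3, a subunit of dolichol-phosphate mannose synthase, had 4.23, 7.81 and 2.6 against 21.4, 14.6 and 11.3 T>C CPM (log2 fold change 1.66, SE 0.54). In these 3 genes the 8 h libraries lay above all 0 h libraries.

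Arrdc4, an arrestin-domain protein related to Txnip, had at most 0.47 T>C CPM at 0 h and 4.53 to 5.63 at 8 h. Mxd4, which pairs with MAX in place of MYC, had 0 T>C reads in all 3 libraries at 0 h and 9, 9.53 and 0.453 T>C CPM at 8 h. Measured against 3 reads over the 0 h group, its level was at least 15.0-fold higher at 8 h, where its T>C reads numbered 34, most of them in replicates 1 and 2. Ncam1, the neural cell adhesion molecule, passed the test with overlapping groups, 2.35, 0 and 0 T>C CPM against 0.563, 9.53 and 10.9. The adjusted p of these 3 genes was 0.0345, 0.0143 and 0.0458 (edgeR). When single libraries were left out, the number of upregulated genes ranged from 1 to 10.

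The list of cholesterol synthesis and uptake genes had the lowest median of the lists with at least 4 tested members. Mammalian cells make cholesterol from acetyl-CoA by way of mevalonate and hold the pathway in balance through the SREBP transcription factors, which INSIG proteins keep in the endoplasmic reticulum. Of 24 listed genes 17 were tested, all 17 had a negative log2 fold change, 10 (58.8%) were downregulated and 0 upregulated, and their median was −1.61 against −0.50 over all genes tested. Over all genes tested 5.61% were downregulated, and 17.2% over the 952 with the most T>C reads. Scaled to T>C reads, the median of the list was −1.25 against −0.16 over all genes, and 6 of the 17 stayed downregulated.

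Hmgcs1 (chr13:119690379-119708260), the synthase at the entry of the mevalonate pathway, had 139, 105 and 151 T>C CPM at 0 h and 34.3, 28.6 and 27.6 at 8 h, a log2 fold change of −2.12 (SE 0.24, adjusted p = 7.86e-10, edgeR). All its 8 h libraries lay far under the 0 h libraries, and scaled to T>C reads its log2 fold change was −1.80. Downstream, Idi1, the isomerase of isopentenyl diphosphate, fell by 2.24 on the log2 scale, but 94.9% of its reads were multimapped. The sterol enzyme Msmo1 fell by 1.32. Among the regulators and carriers, Insig1 had 106, 71 and 76.4 T>C CPM at 0 h and 27.6, 32.5 and 20.8 at 8 h (log2 fold change −1.65, SE 0.26), with 39.2% multimapped reads. Stard4, a sterol transfer protein, fell by 1.73. Other called members make fatty acids rather than sterols. Fasn, the fatty acid synthase, fell by 2.24 (SE 0.40) and Scd2, a stearoyl-CoA desaturase, by 1.14 (SE 0.23). In all 10 called genes every 8 h library lay under every 0 h library. Apart from Hmgcs1 and Insig1, the called members given here were chosen after their values were seen.

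The 7 members that did not pass included Lss (log2 fold change −2.63, SE 0.91, adjusted p = 0.0602, edgeR) and Sqle (−1.20, SE 0.42, adjusted p = 0.0601, edgeR), which act in consecutive steps of sterol ring formation. The gene of the pathway's own transcription factor, Srebf2, had 8.46, 10.7 and 3.34 T>C CPM at 0 h and 4.5, 4.48 and 2.72 at 8 h, with overlapping groups (log2 fold change −0.94, SE 0.70, adjusted p = 0.459, edgeR).

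**Figure D3:**
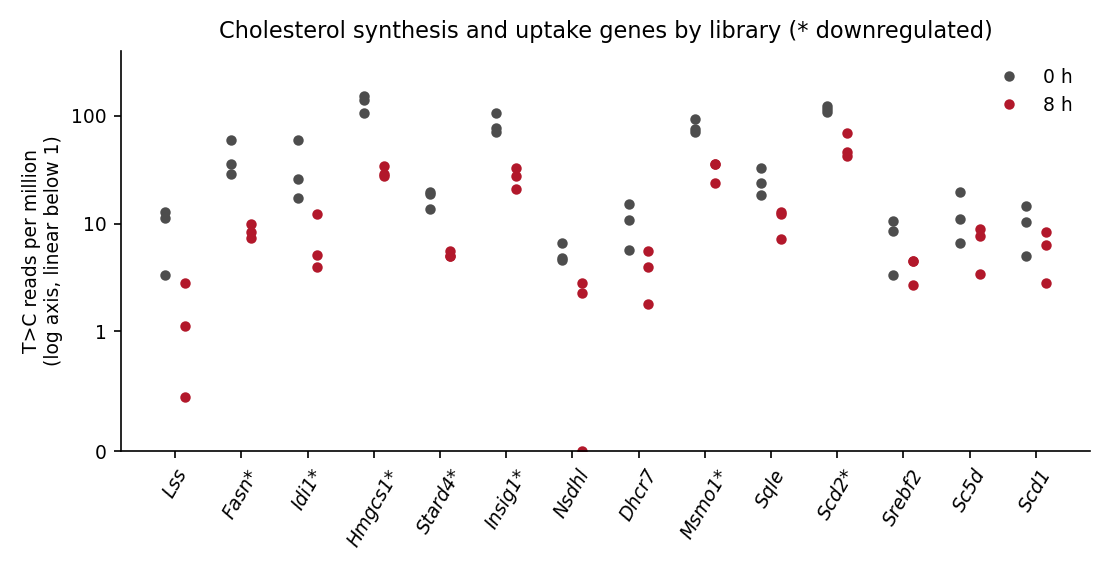
T>C reads of 14 of the 17 tested cholesterol synthesis and uptake genes in each library, as T>C CPM on an axis that is logarithmic above 1 and linear below. Grey points are the 3 libraries of 0 h and red points the 3 libraries of 8 h, genes are ordered by log2 fold change, and stars mark the 7 downregulated genes among those drawn. In the 7 starred genes no red point reaches the lowest grey point.

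Promoters of sterol genes are known to carry binding letters for NF-Y and Sp1 next to the SREBP site, so these were counted in the RefSeq promoter windows (GRCm38.p6, 250 bases before to 50 after the start). A CCAAT box, spelled CCAAT on either strand, was found in 9 of the 10 tested cholesterol genes with a listed promoter, in 37.4% of 203 downregulated genes and in 39.6% of 3826 tested genes. A GC box, spelled GGGCGG on either strand, was found in 9 of the 10, in 73.9% of the downregulated and in 70.1% of the tested genes. Over the promoters of all counted genes (15559), the shares were 38.5% and 49.4%. The letters are a description of these windows and show no binding. The 30 bases around the last CCAAT box of the window are shown for 4 downregulated genes of the list, 5′ to 3′ on the strand of the gene and with the box, or its reverse complement, in capitals.
Hmgcs1 chr13:119690349-119690378, plus strand: ctgagtcccgggATTGGcagaggtagccgc
Insig1 chr5:28071184-28071213, plus strand: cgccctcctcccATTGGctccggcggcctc
Fasn chr11:120824589-120824618, minus strand: cctcggtgtccaATTGGtttcgatgtggag
Msmo1 chr8:64733616-64733645, minus strand: gagtggggcggaCCAATtacgacaggcgag

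Some pluripotency factors were downregulated and others did not pass. Of 34 listed genes 31 were tested, 7 (22.6%) were downregulated, 0 of them also when scaled to T>C reads, and 0 upregulated, and the median of −0.48 was near that of all genes. The share was 5.61% over all tested genes and 17.2% over the 952 genes with the most T>C reads. The list had a median of 134 T>C reads at 0 h against 23.7 over all genes. The part of depth in these shares was not tested. The shares of the following lists are to be read against the same 2 values, and scaled to T>C reads 41 genes (0.861%) were downregulated over all. The called members were Lin28a, Klf5, Utf1, Nr0b1, Lifr, Rif1 and Dppa2, with log2 fold changes between −1.30 and −1.02, and 49.1% of the Dppa2 reads were multimapped. Lin28a, an RNA-binding protein that blocks let-7 maturation, had 94, 66.4 and 60.8 T>C CPM at 0 h and 29.8, 38.1 and 22.2 at 8 h (log2 fold change −1.30, SE 0.29, adjusted p = 0.00201, edgeR). Klf5, a Krüppel-like factor of the naive network, had 171, 119 and 144 against 87.8, 50.4 and 76 T>C CPM (log2 fold change −1.02, SE 0.22, adjusted p = 0.00119, edgeR). Of the called members only Lin28a kept its call whichever library was left out.

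Core factors of the network showed smaller values; these, and the other list members given beside the 1 or 2 that the naming rule takes from each list, were chosen after their values were seen. Sox2 had 391, 323 and 253 T>C CPM at 0 h and 238, 208 and 200 at 8 h, without overlap (log2 fold change −0.58, SE 0.17, adjusted p = 0.0233, edgeR), short of the fold threshold. Nanog had 63, 83.8 and 83.5 against 61.9, 48.2 and 54.3 T>C CPM (log2 fold change −0.49, SE 0.24, adjusted p = 0.224, edgeR). Klf4 (0.04), Tfcp2l1 (0.22) and Tbx3 (0.68), naive factors downstream of LIF, had log2 fold changes above 0 that did not pass, and their groups overlapped. Pou5f1 had 32.4, 23.1 and 14.5 against 32.6, 36.4 and 19.5 T>C CPM, but 97.6% of these reads were multimapped.

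Genes of the formative and primed epiblast had a median of −1.41 over 11 tested of 17 listed, with 3 (27.3%) downregulated and 0 when scaled to T>C reads. Sox4, an HMG-box factor, fell from 39.9, 46.5 and 18.9 to 15.8, 7.85 and 14 T>C CPM (log2 fold change −1.48, SE 0.41). Lefty2, a secreted antagonist of Nodal, fell from 17.9, 19.9 and 22.6 to 7.88, 8.41 and 4.07 T>C CPM (log2 fold change −1.58, SE 0.48), whereas its neighbour and relative Lefty1 had 2.82, 3.91 and 4.82 at 0 h and 6.75, 12.9 and 5.88 at 8 h and did not pass (log2 fold change 1.11, adjusted p = 0.267, edgeR). Among signalling feedback genes, 4 of 15 tested (26.7%) were downregulated, and 2 when scaled to T>C reads. Spred1, an inhibitor of RAS–ERK signalling, fell from 47, 52.6 and 51.9 to 17.4, 13.4 and 17.2 T>C CPM (log2 fold change −1.65, SE 0.32), and Etv5, an ETS factor induced by FGF with 38.1% multimapped reads, fell by 1.55 (SE 0.29). Other ERK feedback genes did not pass, with log2 fold changes of −0.67 for Dusp6 and −0.13 for Spry4. Of the immediate early genes 2 of 16 (12.5%) were downregulated, and 1 when scaled to T>C reads. Id1, a BMP target, fell from 51.2, 61.4 and 50.1 to 13.5, 17.4 and 9.05 T>C CPM (log2 fold change −2.04, SE 0.33, adjusted p = 1.34e-05, edgeR), and Jund, an AP-1 subunit with 41.3% multimapped reads, passed with overlapping groups.

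In DNA replication and G1/S, 4 of 28 tested genes (14.3%) were downregulated, with a median of −0.77 and a median of 62.3 T>C reads at 0 h. Scaled to T>C reads 1 was downregulated. Ccne1, cyclin E1, fell from 86.5, 76 and 57.1 to 25.9, 17.9 and 20.4 T>C CPM, a log2 fold change of −1.77 (SE 0.29, adjusted p = 1.34e-05, edgeR). Rrm2, the small subunit of ribonucleotide reductase, fell by 1.26 (SE 0.27), Pcna, the replication clamp with 58.6% multimapped reads, by 1.23 and Mcm10, an initiation factor, by 1.37. Of the replicative helicase, Mcm5 (−0.01) and Mcm2 (−0.29), named after their values were seen, did not pass, and at T>C scaling they had 0.33 and 0.03. Tyms, thymidylate synthase, lay above all 0 h libraries at 8 h and did not pass (log2 fold change 1.79, adjusted p = 0.0769, edgeR). Of 27 mitotic genes 2 (7.41%, near the 5.61% of all genes) were downregulated, and 0 when scaled to T>C reads. They were the cyclin Ccna2 (−1.20) and the phosphatase Cdc25a (−1.09). The median over that list was −0.41.

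Of 39 SR protein, hnRNP and splicing factor genes all 39 were tested and had a negative log2 fold change, 8 (20.5%) were downregulated, of which 2 when scaled to T>C reads, and the median was −0.78. Sfpq, a paraspeckle and splicing protein, fell from 58.7, 85.2 and 71.2 to 17.4, 17.9 and 29.4 T>C CPM (log2 fold change −1.72, SE 0.30), and Clk1, a kinase of SR proteins, from 14.1, 30.9 and 26.3 to 2.81, 6.16 and 4.53 (log2 fold change −2.39, SE 0.50). Of ribosome biogenesis factors, 7 of 53 (13.2%) were downregulated with a median of −0.69, and 2 when scaled to T>C reads. They included Rrp1b, which acts in rRNA processing (56.4, 39.8 and 43 T>C CPM at 0 h; 12.9, 12.9 and 12.2 at 8 h; log2 fold change −1.87, SE 0.35), and the RNA polymerase I factors Rrn3 (−1.95) and Ubtf (−1.48), named after their values were seen.

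Genes of the translation machinery are given by class. Translation factors had 6 of 39 (15.4%) downregulated and a median of −0.70, and 0 downregulated when scaled to T>C reads. They included the elongation factor Eef1a1 (−1.05, with overlapping groups) and the poly(A)-binding Pabpc1 (−1.06), whose reads were multimapped in 67.9% and 69.2% of cases. Cytosolic ribosomal protein genes had 0 of 70 downregulated and 0 upregulated, with a median of −0.46, and mitochondrial ribosomal protein genes 0 of 49, with a median of −0.41. Rplp0, the best covered of the former with 64.2% multimapped reads, had 255, 187 and 195 T>C CPM at 0 h and 212, 243 and 157 at 8 h, and its log2 fold change of −0.06 turned to 0.29 when scaled to T>C reads. For the best covered mitochondrial member, Mrpl45, the value was −0.79 (adjusted p = 0.213, edgeR). Of 15 tRNA synthetase genes 2 (13.3%) were downregulated, 0 when scaled to T>C reads, namely Kars (−1.11) and Qars (−2.55), which charge lysine and glutamine tRNAs.

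**Figure D4:**
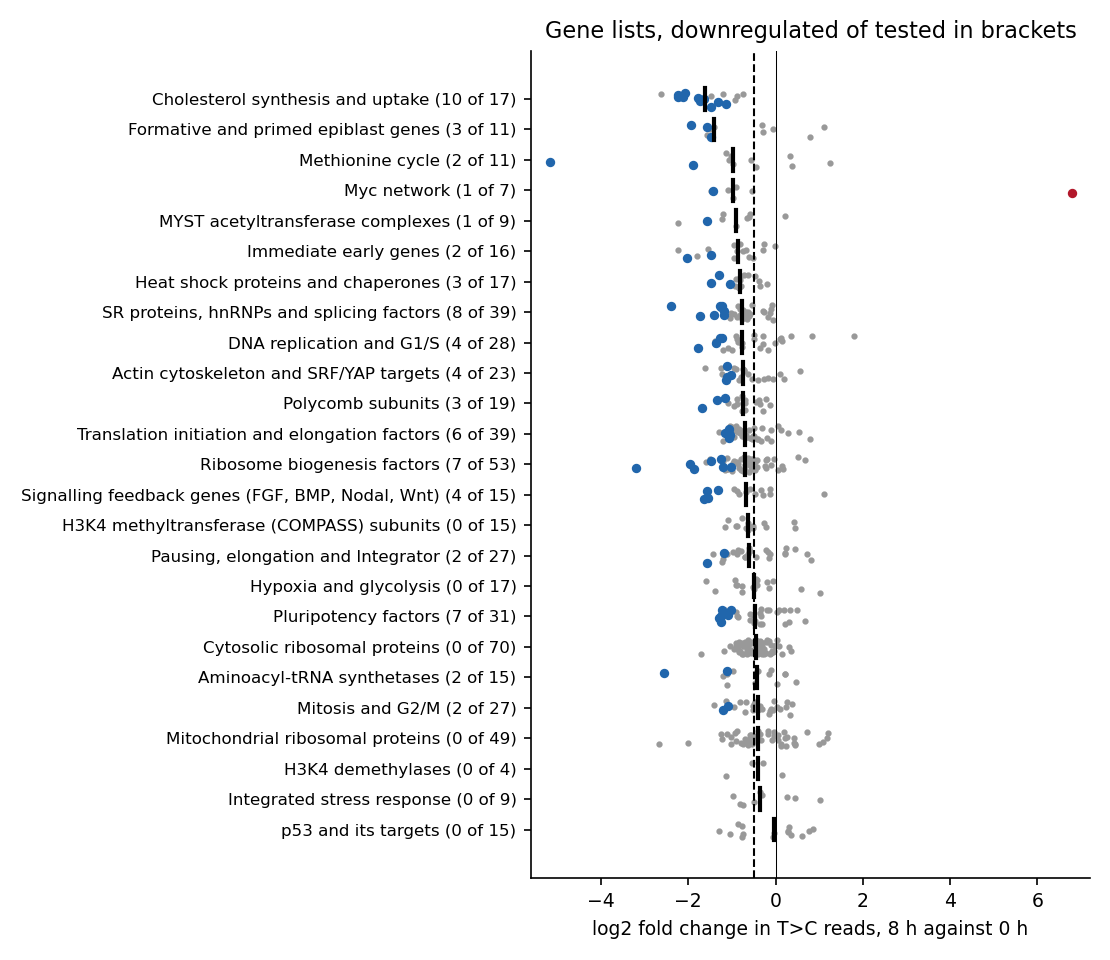
Log2 fold change in T>C reads of the tested members of each gene list with at least 4 tested genes. Each point is a gene, blue if downregulated, red if upregulated and grey if not called; black bars are list medians and the dashed line is the median of all 4761 genes, −0.50. Numbers in brackets are downregulated of tested genes. The cholesterol list (10 of 17) lies farthest left, and the ribosomal protein lists (0 of 70 and 0 of 49) sit near the dashed line.

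None of the 15 tested genes of 18 listed COMPASS subunits was called, in either direction, by edgeR, although 13 had a negative log2 fold change and the median was −0.62. Wdr82, which recruits the SET1 complexes to polymerase, had 55.4, 44 and 49.3 T>C CPM at 0 h and 30.9, 24.1 and 25.3 at 8 h (log2 fold change −0.89, SE 0.30, adjusted p = 0.0505, edgeR). Hcfc1, Wdr5, Kmt2a and Pagr1a likewise had all 8 h libraries under the 0 h libraries, with log2 fold changes of −0.78, −0.52, −1.16 and −0.68 that did not pass. These 5 of 15 genes without overlap stand beside 23.9% over all tested genes. Dpy30 (−0.90), Kdm6a (−0.62), Paxip1 (−0.52), Kmt2d (−0.63), Kmt2b (−0.55), Setd1b (−0.21) and Ash2l (−0.27) overlapped between groups. Of these, Setd1b and Ash2l turned positive (0.13 and 0.07) when scaled to T>C reads. Kmt2c (0.44) and Men1 (0.42) had positive values. Among 4 tested H3K4 demethylase genes 0 were called, and Kdm5b had 134, 108 and 137 against 79.9, 101 and 81.9 T>C CPM (log2 fold change −0.53, adjusted p = 0.116, edgeR).

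Other chromatin and transcription lists held a few called genes each. Of 27 genes of pausing, elongation and Integrator, 2 (7.41%) were downregulated, near the 5.61% of all genes, and 0 when scaled to T>C reads. Ccnt1, the cyclin T1 subunit of P-TEFb, the kinase that releases paused polymerase, fell from 73.8, 68.2 and 66.8 to 24.2, 29.7 and 37.1 T>C CPM (log2 fold change −1.19, SE 0.26), and Hexim1, an inhibitor of P-TEFb, from 39.9, 46.5 and 41.2 to 15.2, 14.6 and 13.1 (log2 fold change −1.57, SE 0.35). Polycomb subunits had 3 of 19 (15.8%) downregulated, 1 of them when scaled to T>C reads, the histone-binding Rbbp7 (−1.69, SE 0.35), the H2A ubiquitin ligase Rnf2 (−1.16, SE 0.34) and the methyltransferase Ezh2 (−1.34, SE 0.41). Of MYST complex genes only Jade1 passed, 1 of 9 (11.1%). In the Myc network Mga, a MAX dimerization partner, fell by 1.43 (SE 0.43), while Mxd4 was the upregulated member, among 7 tested genes.

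In the stress programmes no gene was upregulated, as were only 0.126% of all tested genes. Of 15 tested p53 genes 0 were called and the median was −0.04, which became 0.30 when scaled to T>C reads. Cdkn1a, the p53-induced inhibitor of cyclin-dependent kinases, had 66.2, 59.7 and 48.6 T>C CPM at 0 h and 27.6, 39.2 and 34.8 at 8 h (log2 fold change −0.78, adjusted p = 0.0805, edgeR). The integrated stress response (0 of 9; median −0.35; Slc3a2 −0.49) and hypoxia and glycolysis (0 of 17; median −0.49; Pgam1 −0.19, with 98.5% multimapped reads and 0.17 when scaled to T>C reads) had no called gene. Among chaperones 3 of 17 (17.6%) were downregulated, and 0 when scaled to T>C reads. Hspa5, the chaperone of the endoplasmic reticulum, fell from 188, 138 and 106 to 55.1, 63.3 and 56.6 T>C CPM (log2 fold change −1.30, SE 0.22), and its partner Hsp90b1 passed with overlapping groups (−1.48). The actin list had 4 of 23 (17.4%) downregulated, 0 when scaled to T>C reads, among them Tuba1b (−1.13), a tubulin with 78.7% multimapped reads. In the methionine cycle, next to Mat2a, Amd1, the decarboxylase that commits S-adenosylmethionine to polyamine synthesis, fell from 6.58, 9.95 and 7.79 to 0, 0 and 0.453 T>C CPM (log2 fold change −5.17, SE 1.20). With these, 2 of 11 tested genes (18.2%) were downregulated, both also when scaled to T>C reads. Amd1 averaged 21 T>C reads at 0 h and 0.333 at 8 h, and DESeq2 gave it no adjusted p. At 24 h its log2 fold change was −1.01 and did not pass (adjusted p = 0.363, edgeR).

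Some markers of other cell types were at 0 and others were measured in these cultures, and the summed level of some lists moved with the groups. In total reads, the summed level of 10 neural markers was 138 to 156 CPM at 0 h and 216 to 266 CPM at 8 h, with Dcx and Neurog2 at 0 in all 6 libraries. The 10 fibroblast markers summed to 337 to 425 and 477 to 612 CPM, of which only Vim and Fn1 were above 10 CPM on average, while Dcn, Lum and Postn were at 0. The 11 trophectoderm markers summed to 135 to 171 and 111 to 125 CPM with Elf5 at 0, and 8 mesoderm markers to 14.6 to 22.6 and 7.85 to 11.3 CPM with Gsc, Mesp1 and Tbx6 at 0. The 14 primitive endoderm markers overlapped between groups (588 to 682 and 601 to 760 CPM). In T>C reads, Ncam1 was the called neural marker of 2 tested, Lamb1, a laminin chain, fell by 1.99 (SE 0.60) as 1 of 3 tested endoderm markers, of which Sparc (0.53) and Lama1 (1.52) had positive values that did not pass, and Tfap2c (−0.60) and Vim (0.09) did not pass. The part of such cells in the results was not tested.

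Total reads from the same libraries give the RNA present, old and new. They share every library with the T>C values, so the values are set side by side only. Of 9676 genes tested in total reads with TMM factors, 203 (2.1%) were lower and 215 (2.22%) higher at 8 h. Over the 267 downregulated genes, the median log2 fold change was −1.43 in T>C reads, which the call chose, and −0.55 in total reads, against −0.06 in total reads over all genes tested in T>C reads. In 118 of the 267 genes total reads were within 0.5 of no change on the log2 scale, and in 53 they were lower by more than 1. Actb shows the first kind, with −1.12 in T>C reads and −0.03 in total reads (adjusted p = 0.886, edgeR), as do Ncl (−0.14), Lin28a (−0.16) and Ccna2 (−0.10). Mat2a (−1.24), Plaur (−3.45), Phlda1 (−2.17), Nrp2 (−1.86) and Ccne1 (−1.13) were also lower in total reads. Among upregulated genes, Mitf (2.32) and Mxd4 (2.75) were higher in total reads too, as were Arrdc4 (1.48) and Dpm3 (1.17), while Stard7 (0.77) and Ncam1 (0.87) did not reach the fold threshold.

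**Figure D5:**
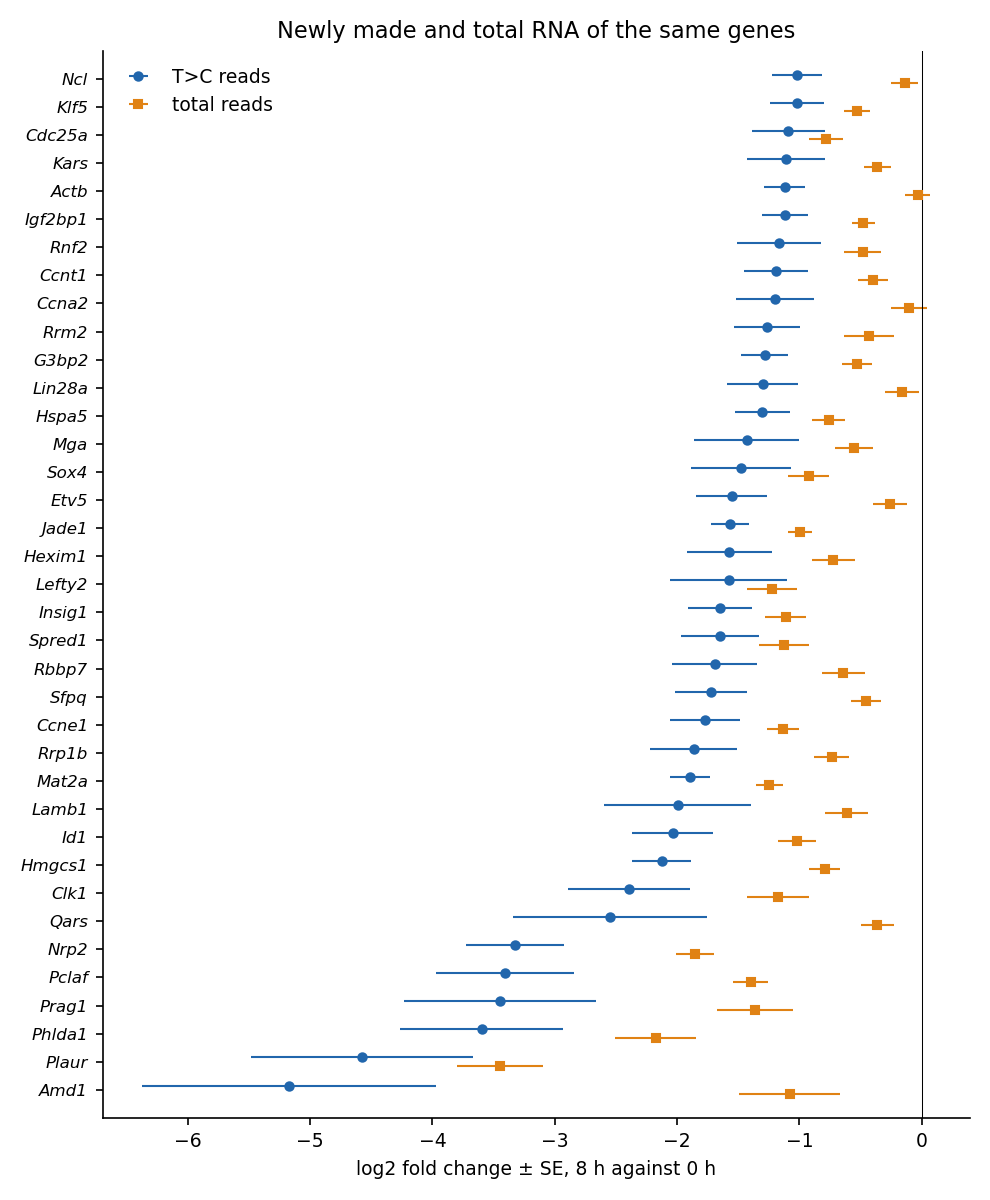
Log2 fold change ± SE at 8 h in T>C reads (blue circles) and in total reads (orange squares) for 37 named downregulated genes whose groups did not overlap and whose reads mapped to more than 1 place in under 50% of cases. The T>C values chose these genes, so that every blue circle lies left of the orange square of the same gene is a description; for Actb the orange square lies at −0.03.

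The 2 h and 24 h time points share the 0 h libraries with the 8 h comparison, so their values are given beside it for named genes. At the successive time points the log2 fold changes of Mat2a were −0.60, −1.90 and −2.48, and those of Jade1 −0.73, −1.56 and −1.84. For Hmgcs1 they were −0.39, −2.12 and −2.87 and for Insig1 −0.03, −1.65 and −2.13. Other named genes had a weaker fall at 24 h than at 8 h, such as Id1 (−0.99, −2.04 and −1.55) and Clk1 (−0.52, −2.39 and −1.82). The contrast of 8 h with 2 h tests the later part of the change directly, and of 4761 genes 22 (0.462%) were lower and 4 (0.084%) higher at 8 h. Hmgcs1 (−1.74, adjusted p = 8.15e-07, edgeR), Insig1 (−1.62) and Idi1 (−1.96) were among the lower genes, as were Phlda2, Nrp2 and Cdh1. The pluripotency gene Nr0b1 was lower by 1.53 than at 2 h, where its log2 fold change against 0 h was 0.30.

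In DPY30–mAID cells, another mES line, in which auxin degrades another core subunit, 915 of 6317 tested genes (14.5%) were downregulated at 8 h. The lines share no library. At 0 h, 15.3% to 16.1% of counted reads carried T>C in DPY30–mAID cells and 9.1% to 10.1% in RBBP5–FKBP cells. The counts of called genes are therefore not compared on equal terms. Of the 17 cholesterol genes 10 were downregulated there also, with a median of −1.08. Hmgcs1 had −2.12 in both lines, Mat2a −2.41 there and −1.90 after RBBP5 loss, and Jade1 −1.61 and −1.56, and none of these differences between lines passed. Other genes called after RBBP5 loss did not pass in DPY30–mAID cells, such as Hspa5 (−0.18 there and −1.30 after RBBP5 loss) and Pclaf (−0.25 and −3.41). Their differences between lines were not called either. Cytosolic ribosomal protein genes had 26 of 70 downregulated in DPY30–mAID cells and a median of −0.88, beside 859 of the 4674 genes tested in both lines and their median of −0.75. The difference between the lines, tested per gene as an interaction in one fit of 24 libraries, was called for 6 of 6404 genes (0.0937%), all with the higher value in RBBP5–FKBP cells, and for 2 with a replicate block within each line. The count ranged from 3 to 52 when an 8 h library of either line was left out, and the DPY30–mAID 8 h libraries differed in labelling among themselves.

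The downregulated genes were also described by features that the counts did not use. They had a median gene length of 18.3 kb against 25.2 kb in the other tested genes, and 7.66% of the 953 shortest genes were downregulated against 3.78% of the 952 longest, whose median T>C count at 0 h was also lower (20.3 against 28). Depth moved with the calls throughout: the called genes had a median of 88.7 T>C reads per 0 h library and the others 22.3, and 1.36% of the 953 genes with the fewest T>C reads over all 12 libraries were called against 17.2% of the 952 with the most. Among genes averaging 50 or more T>C reads, the medians of gene length were 16.3 kb and 18.2 kb, closer than over all tested genes. Promoter GC content was 63.7% against 62% over all tested genes and 66% against 63.3% among genes averaging 50 or more T>C reads. CpG density was 8.33 against 8 and, in the deeper genes, 9.67 against 8.67 per 100 bases. By the share of T>C reads in the untreated DPY30–mAID libraries, 6.94% of the 951 genes with the highest share were downregulated and 4% of the 951 with the lowest, with medians of −0.58 and −0.45. The GC box stood in 82.5% of 97 downregulated and 71.8% of 471 other promoters among genes averaging 50 or more T>C reads. Among all tested genes the shares were 73.9% and 69.9%. Several motifs were counted, and the CCAAT box went the other way. It stood in 37.1% and 42.3% among the deeper genes and in 37.4% and 39.8% among all tested genes. Of the 136 tested X-linked genes 14, or 10.3%, were downregulated, among them Bex1, Rhox5, Nr0b1 and Rbbp7; on the other chromosomes with over 100 tested genes the share was 2.92% to 7.69%.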

How the data were processed

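The authors trimmed 3′-end reads, aligned them to mm10 with SlamDunk 0.3.4 and deposited read counts, T>C read counts, conversions and covered T positions per 3′ UTR interval, without molecular identifiers. Intervals were those of GENCODE vM14. The deposited CPM column, scaled to mapped reads, served only to derive mapped reads. The T>C counts were used as deposited, reads with a single conversion included. Here counts were summed over 20177 genes, and the gene positions came from GENCODE vM21 (GRCm38). T>C counts of all 12 RBBP5–FKBP libraries were fitted with edgeR 4.0.16 (R 4.3.3) by its quasi-likelihood test with Benjamini-Hochberg adjustment. Library sizes were total reads times TMM factors from total reads, also in every CPM given. The thresholds were an adjusted p of 0.05 and 1 on the log2 scale. DESeq2 1.42.0, other scalings, filters, a replicate block and left-out libraries were alternatives, and the fits were checked on artificial counts.

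The labels do not say that replicates were separate cultures (the paper calls them biological), so p-values measure the spread between these libraries. Same-numbered libraries at 0 h and 8 h did not deviate together (correlations −0.0278, −0.0521 and 0.0653). None of the 0 h and 8 h RBBP5–FKBP replicates were duplicates, with a chi-square per degree of freedom of 5.38 to 13.6 between pairs. Named genes were, by rule, all tested COMPASS subunits; the 6 downregulated genes with the most 0 h T>C reads and the 6 with the most negative change among those with at least 30 reads, both without overlap and with under 50% multimapped reads; up to 8 upregulated genes; and up to 2 called members per list, or the best covered one. The comparison, the 30 gene lists and the rule were chosen with earlier results of these data known. Of the list genes, 32 had no match and were not used here. Results for a few genes that the rule or lists include are not reported here. Intervals and floors of 3 reads cover counting error only.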

Additional observations from a re-analysis of the deposited data

Results flagged for a closer look

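For 6 genes the 8 h change differed between the RBBP5–FKBP and DPY30–mAID lines, by the interaction term in edgeR. With a replicate block within each line 2 of them, Atxn7l3b and Arrdc4, passed, and the adjusted p of the others was 0.0642 to 0.175 (edgeR). Atxn7l3b (adjusted p = 0.0026, edgeR) had 22.1, 21.3 and 32.6 T>C CPM at 0 h and 24.2, 20.7 and 31.2 at 8 h in RBBP5–FKBP cells, and 66.2, 70.3 and 63.6 against 12.5, 12.2 and 3.93 in DPY30–mAID cells. The 8 h libraries of all replicates stayed within the 0 h range or close to it in the first line and lay far under it in the second. Arrdc4 (adjusted p = 0.0109, edgeR) rose in RBBP5–FKBP cells and fell in DPY30–mAID cells, from 10.5, 15.1 and 18.5 to 8.48, 4.68 and 2.18 T>C CPM. Tex19.1 (adjusted p = 0.044, edgeR) had 26.3, 16 and 17.1 against 5.63, 12.9 and 18.6 T>C CPM in RBBP5–FKBP cells and 81.7, 82.5 and 61.3 against 12.9, 8.43 and 5.67 in DPY30–mAID cells. Pfdn6 (adjusted p = 0.041), Dzip3 (adjusted p = 0.041) and Iba57 (adjusted p = 0.044) rest on few reads. Pfdn6 and Dzip3 had 0 T>C reads in every 0 h library of RBBP5–FKBP cells and were at least 8.82-fold and 8.38-fold higher at 8 h, measured against 3 reads over the 0 h group. The 8 h share of T>C reads ranged from 5.51% to 13% in DPY30–mAID cells. With libraries scaled to T>C reads, 6 of 6404 genes were called, a count that does not say whether these are the same genes. The part of labelling beyond this scaling was not tested.

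The change also differed between time points of the RBBP5–FKBP line. Set against 2 h, T>C reads at 8 h were lower for 22 genes and higher for 4 (edgeR).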

How the results depend on the processing

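The count of downregulated genes left the range of 1.5 times 267 when scaled to T>C reads (41), at an unadjusted p (599) and without 8 h replicate 2 (146), and stayed inside it in the other alternatives. The fits that left out 1 library gave 146 to 200. Mapped reads as library size, an alternative chosen after seeing the data, gave 397. Upregulated genes numbered 1 under a filter of 50 T>C reads, 48 at an unadjusted p and 1 to 10 with 1 library left out. The median log2 fold change was −0.16 scaled to T>C reads, −0.61 scaled to mapped reads, −0.18 without a filter and −0.71 with the filter of 50 reads, and −0.54 to −0.43 with 1 library left out. In total reads, 136 to 282 genes were lower and 121 to 239 higher with 1 library left out. The genes that differed between lines numbered 2 (Atxn7l3b and Arrdc4) with the replicate block within each line, and 3 to 52 with 1 library left out. Scaled to T>C reads they numbered 6. With the replicate block, 254 genes were downregulated and 5 upregulated at 8 h, although the numbers did not pair the libraries. In total reads it gave 183 lower and 183 higher. The cause of these shifts was not tested, other than that fewer samples or genes entered some fits.

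Of the 49 named called genes none changed direction in any alternative. Scaled to T>C reads, 27 of them no longer passed. With 1 library left out, 9 to 19 of those tested no longer passed. Among the genes named by rule, values that changed sign belonged to uncalled genes. Scaled to T>C reads these were Ash2l (0.069), Pgam1 (0.17), Rplp0 (0.29) and Setd1b (0.13), and scaled to mapped reads Vim (−0.056). With 1 library left out the values ranged from −0.58 to 0.054 for Ash2l, −0.20 to 0.10 for Rplp0 and −0.21 to 0.45 for Vim. DESeq2 no longer called 8 of the 49.

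T>C counts limit what can be seen: genes not downregulated had a median of 22.3 T>C reads per 0 h library.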

Other observations

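The downregulated genes given in this paragraph were picked after their values were seen, from no fixed list, so no share can be set beside them. Of those named, Cdh1, Mpzl2 and Ptprf were called whichever library was left out, and the others lost the call without some library. Cdh1, E-cadherin, had 153, 96.6 and 110 T>C CPM at 0 h and 46.7, 40.9 and 28.1 at 8 h (log2 fold change −1.64, SE 0.24, adjusted p = 2.56e-06, edgeR), and Cdh3, P-cadherin, had 6.11, 7.1 and 6.68 against 0, 0.56 and 0.453. Ctnnd1, which binds cadherin tails, had a log2 fold change of −2.17 (SE 0.66) with overlapping groups. The tight junction genes Cldn4, Cldn6 and Lsr had −1.15 (SE 0.37), −4.33 (SE 1.39) and −2.60 (SE 0.65). The groups of Cldn4 also overlapped. Cldn6 averaged 11.3 T>C reads at 0 h and had 0, 0.56 and 0 T>C CPM at 8 h. The adhesion and epithelial genes Mpzl2, Ptprf and Sfn had −2.54, −2.73 and −2.84. Total reads of Cdh1 and Cldn6 changed by −0.92 and −2.39 on the log2 scale. Cdh1 and Mpzl2 were called under every alternative.

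By every alternative, T>C scaling included, 29 genes were downregulated, among them Mat2a, Jade1, Hmgcs1, Fasn, Nrp2, Phlda1, Phlda2, Id1, Ccne1, Spred1, Rrn3 and Sfpq.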
